A study of Mus musculus with 8 samples.

Results

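The TGF-beta superfamily ligands are secreted signalling proteins, and their genes were followed here across mouse liver stellate cells of different ages and 2 mesenchymal cell types from outside the liver. The 33 genes are the TGF-betas, the bone morphogenetic proteins (BMPs), the growth and differentiation factors (GDFs), the activin and inhibin subunits, and nodal, the leftys and anti-Muellerian hormone. They were listed by name as a family, but with earlier results of these data known. They are 33 of the 20144 genes that could be named on the array. All 33 had a probe: 39 probes in all, with more than 1 probe for 6 genes.

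Each of the 8 groups was 1 one-colour microarray, without replicates, so the spread from animal to animal is unknown. The RNA of 5 arrays came from p75NTR-positive liver cells of fetuses (E11.5, E13.5 and E14.5, and later E17.5) and of newborns on postnatal day 1 (P1). These livers were digested with collagenase, and cells with p75NTR but without CD45 (a leukocyte marker) or Ter119 (a red cell marker) were collected by flow cytometry. The nerve growth factor receptor p75NTR is a surface marker of fetal stellate cells. The sixth liver array held adult hepatic stellate cells (HSC), sorted by their vitamin A. MEF are cultured fibroblasts of embryonic skin and MSC are purified mesenchymal stem cells of adult bone marrow. The sources used here do not give strain, sex, adult age, culture time or any pooling of animals. The sort and the age differ together between P1 and adult HSC and cannot be told apart.

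Ligands of the family signal as dimers through pairs of type I and type II receptor kinases, which phosphorylate Smad proteins. TGF-betas, activins, nodal and some GDFs act mainly through Smad2 and Smad3. Most BMPs and some other GDFs act mainly through Smad1, Smad5 and Smad9. Stellate cells store vitamin A beside the liver sinusoids, turn into matrix-producing cells in fibrosis under TGF-beta, and are known as a source of BMP9, which circulates and acts on endothelium.

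Every level below is the log2 of a probe's processed signal minus the log2 of that array's 75th percentile, so 0 is the 75th percentile of the array and 1 unit is a doubling. Levels are compared for the same gene between arrays, never between genes, since probes differ in brightness. A probe called well above background by the scanner software is called detected here. The scanner's own error on a detected member was 0.146 log2 units at the median and 0.144 to 0.313 over all. This is the error of a spot and not of the biology. Between 58.8% and 64.5% of spots were detected on each array, and the 14 stellate cell markers checked were all detected on each of the 6 liver arrays, against 11 on MEF and 6 on MSC. Slide 1 held the 4 fetal arrays and slide 2 held P1, adult HSC, MEF and MSC.

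Of the 33 ligand genes, 17 were detected on all 8 arrays (51.5%, against 56% of all named genes), 15 on some arrays, and 1 on none. The gene not detected anywhere was Amh, the hormone that removes the Muellerian ducts in males. Thus 32 members were detected on at least 1 array, where 82% of all named genes were. The number of members detected was 25 at E11.5, 30 at E13.5, 30 at E14.5, 28 at E17.5, 30 at P1, 25 in adult HSC, 27 in MEF and 20 in MSC. The lowest level of a member was on the MSC array for 16 of the 32 detected members, whereas 27.8% of all detected genes had their lowest level there. Among these members, Bmp3, Bmp5, Bmp7, Bmp8b, Bmp15, Gdf5, Gdf6, Gdf10, Inhbc and Mstn were not detected on MSC, so their rank orders background readings. MSC also had the highest 75th percentile of signal (414) and the lowest detected level (-6.58) of the 8 arrays.

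**Figure D1:**
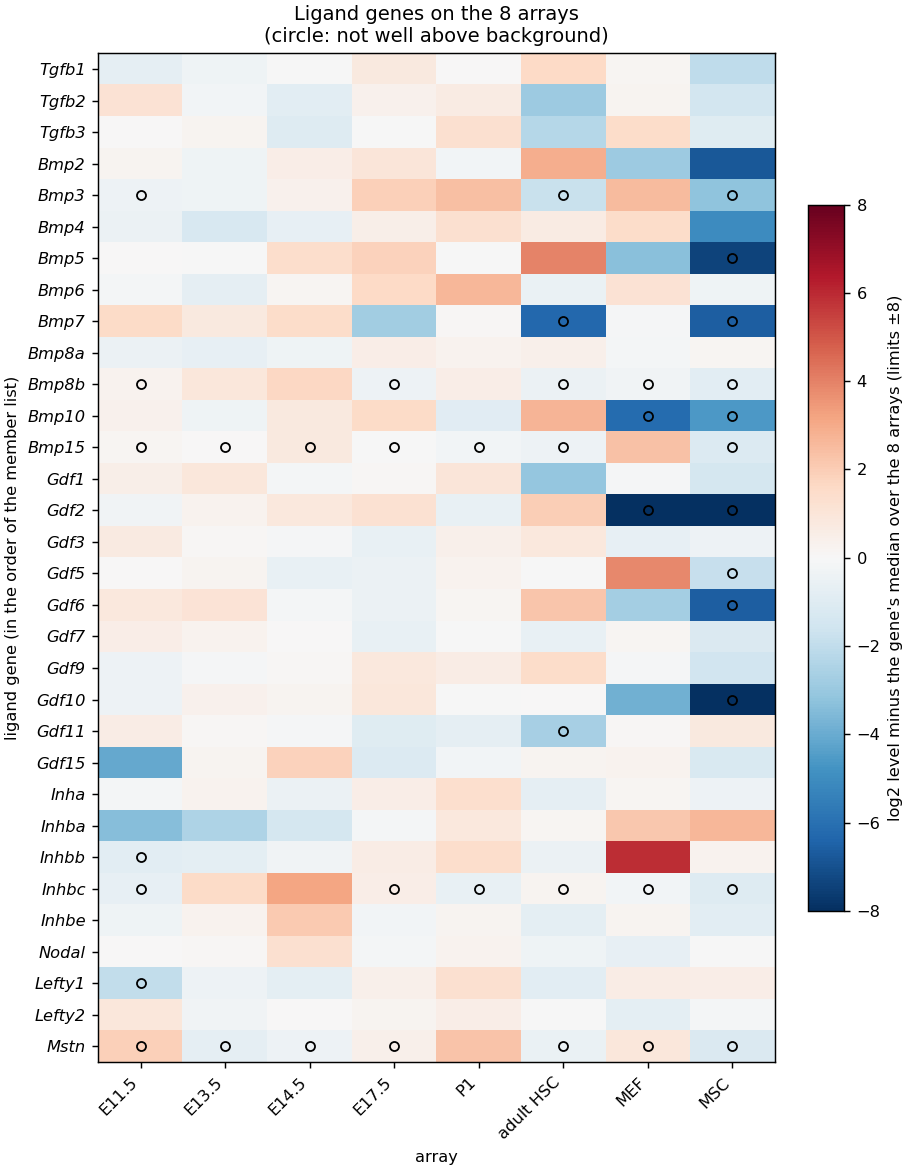
Level of each of the 32 ligand genes detected on at least 1 array (rows, in family order) on each of the 8 arrays (columns), coloured by the log2 difference from the gene's own median over the arrays, with colours limited at 8 units; circles mark cells not well above background. Gdf2 is high on the 6 liver arrays and undetected on MEF and MSC, and 20 members are detected on MSC against 30 at P1.

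Gdf2, which encodes BMP9, and Bmp10, its closest relative, were the 2 members detected on all 6 liver arrays and on neither MEF nor MSC. Both proteins bind the type I receptor ALK1 (Acvrl1) and the co-receptor endoglin on endothelial cells. Of the 16519 genes detected on at least 1 array, 0.436% had that pattern. The 250 bases before the start of these genes are shown because both hold the letters AGATAA, the core read by GATA factors, 2 times. Capitals mark the matches on either strand. They come from RefSeq (GRCm38.p6, plus strand), at chr14:33940789-33941038 for Gdf2 and chr6:87428744-87428993 for Bmp10.

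Gdf2: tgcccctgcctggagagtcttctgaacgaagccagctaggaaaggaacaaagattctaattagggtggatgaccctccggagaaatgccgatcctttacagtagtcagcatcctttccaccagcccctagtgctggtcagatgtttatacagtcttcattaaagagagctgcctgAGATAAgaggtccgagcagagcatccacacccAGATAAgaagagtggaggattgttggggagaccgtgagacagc
Bmp10: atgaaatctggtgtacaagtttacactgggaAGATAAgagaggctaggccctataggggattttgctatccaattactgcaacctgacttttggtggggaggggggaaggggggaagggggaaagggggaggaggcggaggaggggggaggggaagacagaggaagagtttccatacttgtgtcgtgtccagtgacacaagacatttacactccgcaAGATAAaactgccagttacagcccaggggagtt

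The matches begin 75 and 43 bases before the start of Gdf2, and 219 and 33 bases before that of Bmp10. Over 32851 RefSeq promoters of the same length, 9.99% held AGATAA at least once and 0.938% at least 2 times. A promoter was found for 22 of the 33 members: 3 held the letters at least once (Bmp10, Bmp8a and Gdf2) and 2 held them 2 times. The motif was chosen with the sequences in view, and a match describes letters, not a bound factor.

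Gdf2 had levels of 4.36 at E11.5, 4.90 at E13.5, 5.48 at E14.5, 5.86 at E17.5, 4.04 at P1 and 6.60 in adult HSC. On MEF and MSC its probe read -8.48 and -8.44, not well above background. Among the liver arrays adult HSC was highest and P1 lowest, and both other arrays lay far below all 6. The liver mean exceeded the other mean by 13.67 ± 0.66 (SE), with an adjusted p of 0.000193 in limma over all genes, higher on 6 of 6 liver arrays. Because MEF and MSC gave only background, the difference is stated as a bound: Gdf2 was at least 3245-fold higher, setting the liver mean against the lowest detected signal of those arrays. With the slide as a block the adjusted p was 0.00541, and within slide 2 alone the difference was 13.78 with an adjusted p of 0.362. Normexp background correction gave 7.79 with an adjusted p of 0.00142.

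Bmp10 read -1.95 at E11.5, -2.66 at E13.5, -1.55 at E14.5, -0.80 at E17.5, -3.20 at P1 and 0.38 in adult HSC. On MEF and MSC it read -8.47 and -6.91, not well above background. Among liver arrays adult HSC was again highest and P1 lowest, and neither outside array came near them. Its liver mean was 6.06 ± 0.93 (SE) above the others (limma adjusted p = 0.0285), at least 28.4-fold. That call did not survive the slide as a block (6.28, adjusted p = 0.0995), nor leaving out any of 6 arrays in turn: adjusted p was 0.0512 without E11.5, 0.0550 without E13.5, 0.0815 without E14.5, 0.0735 without E17.5, 0.0510 without MEF and 0.0620 without MSC. With normexp background correction, which models the local background of each spot, it was 2.17 higher (adjusted p = 0.202).

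These 2 were the members called in the liver comparison, both higher: 2 of 32 tested (6.25%), where 1.57% of all genes were called (0.848% higher and 0.726% lower). Both entered the test through the liver side alone, with background readings on MEF and MSC. Among genes detected on every array, 0 members and 160 genes were called. The 6.25% is therefore a description and no support for a trait of the family. At an unadjusted p under 0.05 there were 8 members, against 19.6% of all genes. The median difference over the tested members was 0.61, against 0.02 over all genes. In this comparison the spread comes from arrays of different ages and cell types, since no array repeats another.

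Without overlap means that every liver array lay on one side of both other arrays. That held for 6 members in the higher direction (18.8%, against 12.7% of all genes) and for 1 in the lower direction (Inhba, against 10.4% of all genes). Besides Gdf2 and Bmp10 the higher ones were Gdf10, Bmp2, Bmp5 and Gdf6, none of which passed adjustment.

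**Figure D2:**
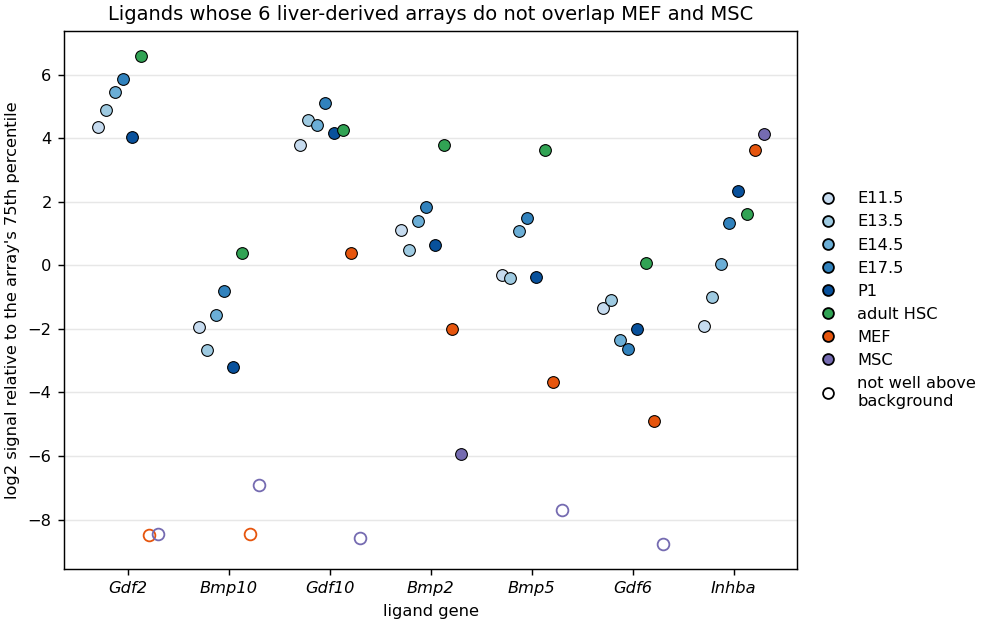
Levels (log2 relative to the array's 75th percentile) of the 7 members whose 6 liver arrays do not overlap with MEF and MSC; each point is 1 array, and open points were not well above background. Gdf2 and Bmp10 are open on both MEF and MSC, and for Inhba the order is turned, with MEF and MSC on top.

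Gdf10 encodes BMP3b, a relative of BMP3. It read 3.79, 4.56, 4.43, 5.10, 4.16 and 4.26 on the liver arrays in order of age, 0.40 in MEF and -8.58 in MSC, where it was not detected. The liver levels varied little with age, and MEF stood between them and MSC. The mean difference as read was 8.47 ± 1.89 (SE; limma adjusted p = 0.0812), and 7.48 (adjusted p = 0.0521) with undetected levels raised to the lowest detected signal. It depended on the outside array used: against MEF alone it was 3.99 (adjusted p = 0.0155), with that 1 array assumed to vary like the others. Against MSC alone only a bound exists, since the probe was at background there. With normexp it was 5.15 (adjusted p = 0.0215). Gdf10 and Gdf2 are direct neighbours among the coding genes of chromosome 14 in RefSeq order. The gene before them, Ptpn20, was detected on 4 liver arrays and on neither MEF nor MSC, at least 4.06-fold higher in liver cells (limma adjusted p = 0.0506). Ptpn20 entered that test through the liver side alone, with background readings on MEF, MSC, E11.5 and P1. The pair after them, Rbp3 and Zfp488, differed by -0.01 and 0.24.

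Bmp2, an osteogenic BMP that liver endothelium also makes, read 1.11, 0.50, 1.40, 1.82, 0.63 and 3.78 on the liver arrays, and -2.01 in MEF and -5.94 in MSC. Bmp5 read -0.29, -0.39, 1.09, 1.50, -0.38 and 3.63, and -3.68 in MEF and -7.71 in MSC, the last not detected. For both, adult HSC was the highest array, E17.5 the second, and MSC the lowest. The mean differences were 5.52 ± 1.15 for Bmp2 (limma adjusted p = 0.0679) and 6.56 ± 1.35 for Bmp5 (limma adjusted p = 0.0649). Without adult HSC both passed, with adjusted p of 0.0461 and 0.0419, and without MEF, with differences of 7.48 and 8.57 and adjusted p of 0.0136 and 0.0208. Without MSC the differences were 3.55 and 4.54, with adjusted p of 0.323 and 0.337. With the slide as a block the adjusted p was 0.123 and 0.122. Gdf6, a joint and eye patterning factor, read -1.35, -1.09, -2.34, -2.63, -2.01 and 0.07 on the liver arrays, -4.89 in MEF and -8.78 in MSC, the last not detected. Its liver levels also peaked in adult HSC, and the difference as read was 5.28 ± 1.05 (limma adjusted p = 0.0572), or 4.18 (adjusted p = 0.0404) with the undetected MSC level raised to the lowest detected signal. Without MSC it was 3.33 (adjusted p = 0.252) and without MEF 7.22 (adjusted p = 0.00840). Normexp gave 3.61, 3.42 and 1.98 for Bmp2, Bmp5 and Gdf6, with adjusted p of 0.0947, 0.131 and 0.228.

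Some marker lists also separated the liver arrays from MEF and MSC, and others did not. The summed level of 12 endothelial markers was 4.01 to 5.82 on the p75NTR arrays, 7.81 in adult HSC, 0.72 in MEF and 0.39 in MSC. Between 9 and 12 of the 12 were detected on a liver array. All 12 were detected at E11.5, where the sum was 4.19. Erg was not detected at E13.5, E14.5, E17.5 or P1, nor in adult HSC. Emcn was missing on the same arrays except P1, and Tie1 at E13.5 and E14.5. The 14 stellate cell markers summed to 7.36 to 8.78 on the p75NTR arrays, 10.33 in adult HSC, 3.65 in MEF and 2.13 in MSC. Lrat, Reln and Tcf21 were not detected on MEF or MSC. The 10 erythroid markers summed to 4.34 to 7.75 on the liver arrays, -2.09 in MEF and -2.14 in MSC. Between 4 and 10 were detected on a liver array, and 4 on each of the others. The erythroid sum was highest at E17.5 (7.75), with 4.75 in adult HSC and 4 of 10 detected there. The sums of 10 leukocyte and Kupffer cell markers and of 6 megakaryocyte markers were highest in MEF (3.77 and 3.63). Of the 10, 9 were detected in MEF, 8 in adult HSC, 2 to 7 on the p75NTR arrays and 5 in MSC. Clec4f, one of the 10, was detected in adult HSC only. Fewer cells of a type and less RNA per cell cannot be told apart in such sorted bulk RNA. The part of endothelial, erythroid and Kupffer cell RNA in these differences was not tested.

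Inhba, whose product pairs to form activin A, was the member with the reverse order. It read -1.91, -1.00, 0.05, 1.33, 2.33 and 1.62 on the liver arrays and 3.65 in MEF and 4.14 in MSC. The liver mean was 3.49 below the others (11.2-fold lower, SE 1.10, limma adjusted p = 0.163). Within slide 2, where the liver arrays are P1 and adult HSC, the difference was -1.92 (limma adjusted p = 0.540). Those oldest liver arrays were nearer to MEF and MSC than the fetal ones were.

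Inhba also had the steadiest course with age. Over the 5 p75NTR arrays it was higher at every step, with a slope of 1.08 ± 0.06 (SE) per stage, and P1 was 18.9-fold above E11.5. No gene on the array passed adjustment in this limma fit: 0% of 15536 were called, and 0 of the 31 members tested. The lowest adjusted p of any gene was 0.0590, which was also that of Inhba. With quantile normalization, with time counted in days, or with genes detected on all 5 arrays, Inhba passed, with adjusted p of 0.0456, 0.0459 and 0.0350. With normexp its slope was 0.83 (adjusted p = 0.348), and leaving out E13.5 or E17.5 gave adjusted p of 0.193 and 0.184. Leaving out P1, which lies on the other slide, gave a slope of 1.08 with an adjusted p of 0.0820.

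At an unadjusted p under 0.05, 8 of the 31 members had a positive slope (25.8%, against 12.4% of all genes) and 1 a negative slope (against 15.6%). Beside Inhba these were Bmp3 (0.79 per stage), Bmp6 (0.79), Lefty1 (0.73), Inhbb (0.59), Bmp4 (0.52), Gdf9 (0.29) and Bmp8a (0.27). With normexp background correction the slopes of Bmp3, Bmp6, Inhbb and Bmp8a turned to -0.15, -0.06, -0.14 and -0.17, and those of Lefty1 and Gdf9 shrank to 0.01 and 0.03. The member with a negative slope was Gdf11 (-0.36), a relative of myostatin that patterns the trunk. Levels were higher at every step for 3 members (9.68%, against 3.31% of all genes), namely Inhba, Inhbb and Bmp3. For Inhbb and Bmp3 the first step began from an undetected E11.5 probe and was smaller than the scanner's error there (0.34 and 0.50), so it has no direction. No member was lower at every step, where 6.75% of all genes were.

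**Figure D3:**
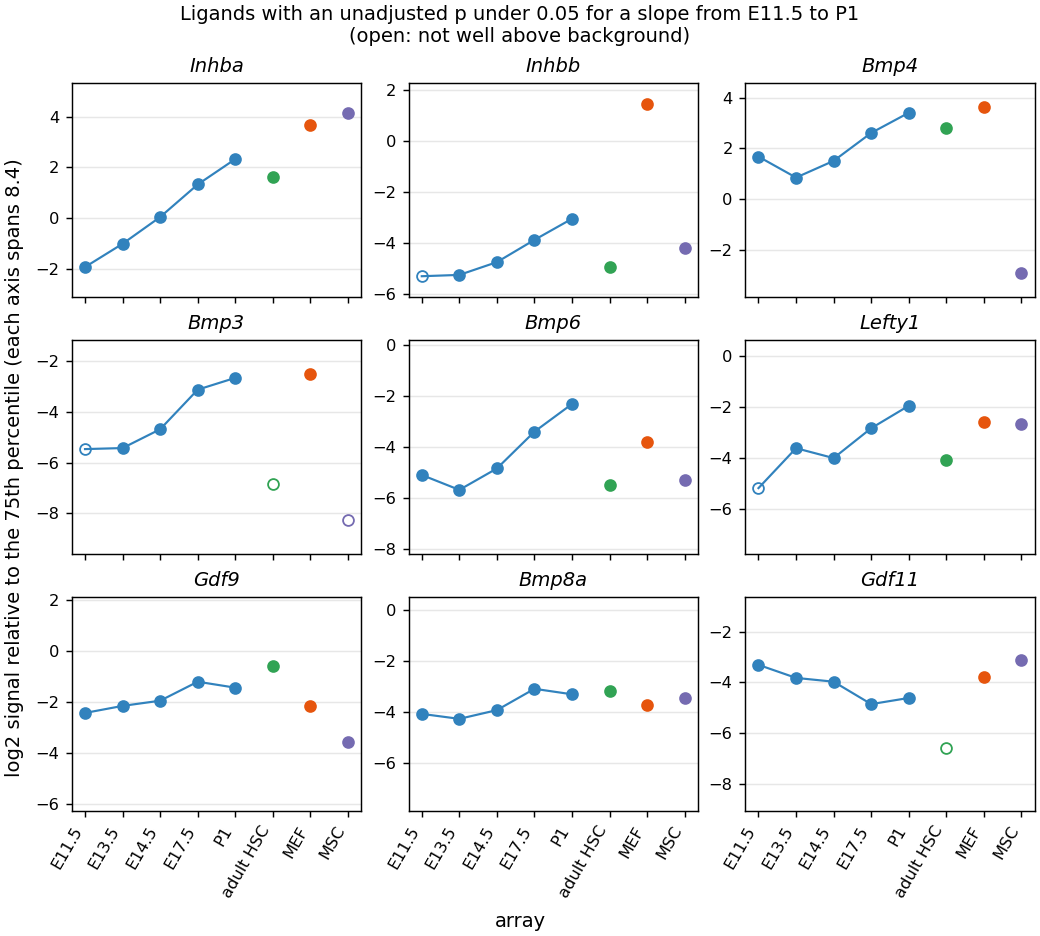
Levels (log2 relative to the array's 75th percentile) of 9 members on the 8 arrays, with the 5 p75NTR arrays joined by a line in order of age and adult HSC, MEF and MSC as points beside them; open points were not well above background and each axis spans the same number of units. Inhba goes from -1.91 to 2.33 without a step down, while Bmp4 dips at E13.5 and reaches 3.40 at P1.

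Inhbb, the activin B subunit, read -5.31 at E11.5, not detected, then -5.26, -4.76, -3.89 and -3.06 up to P1 and -4.94 in adult HSC. In MEF it stood at 1.46 and in MSC at -4.20, so MEF was far above every other array. Inha, the alpha subunit that turns activins into inhibins, was detected on all arrays and lay between -2.10 in adult HSC and -0.02 at P1.

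The P1 array was at least 4-fold above E11.5 for 6 of 30 members compared (20%, against 9.69% of all genes): Inhba, Gdf15, Lefty1, Bmp3, Bmp6 and Inhbb. It was 4-fold below for none, where 4.21% of all genes were. A pair of single arrays has no test, and these 2 lie on different slides. Age and slide therefore cannot be told apart here. Lefty1, an antagonist of nodal, went from -5.17 (not detected) to -1.94, at least 9.41-fold. Bmp6, the BMP that drives hepcidin in the liver, went from -5.10 to -2.31, 6.90-fold. Bmp3, which opposes other BMPs, went from -5.47 (not detected) to -2.67, at least 6.43-fold. With normexp correction Inhba and Gdf15 were past 4-fold, and the other 4, all dim at E11.5, were not. E11.5 was also the array with the lowest 75th percentile of signal and the flattest spike-in line (slope 0.849, against 0.922 to 0.933 elsewhere). Its part in these differences was not tested.

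Gdf15, a stress-induced ligand of the receptor GFRAL, did not follow age. It read -3.88 at E11.5, 0.44 at E13.5, 2.08 at E14.5, -0.86 at E17.5, 0.02 at P1, 0.45 in adult HSC, 0.49 in MEF and -1.00 in MSC. E11.5 was thus the low array and E14.5 the high one, 62.4-fold apart. The liver activin genes Inhbc and Inhbe, neighbours on chromosome 10 that hepatocytes are known to express, also peaked at E14.5. Inhbc was detected at E13.5 (-4.95) and E14.5 (-3.35) and on no other array. Inhbe read -2.34 at E14.5 and between -5.28 and -4.19 elsewhere.

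The hepatocyte and hepatoblast markers had that same peak. With Dlk1 left out, 11 of them summed to 3.43, 8.71, 10.27, 7.03, 6.15 and 5.78 on the liver arrays and to 0.68 in MEF and 0.14 in MSC. At E13.5 and E14.5, 10 of the 11 were detected, and Cps1 was not. Alb, the albumin gene, stood at -2.03 at E11.5 and 7.19 at E14.5. Dlk1 was taken out after its values were seen, because it was high outside the liver too. The part of hepatocyte RNA in the Inhbc, Inhbe and Gdf15 peaks was not tested.

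**Figure D4:**
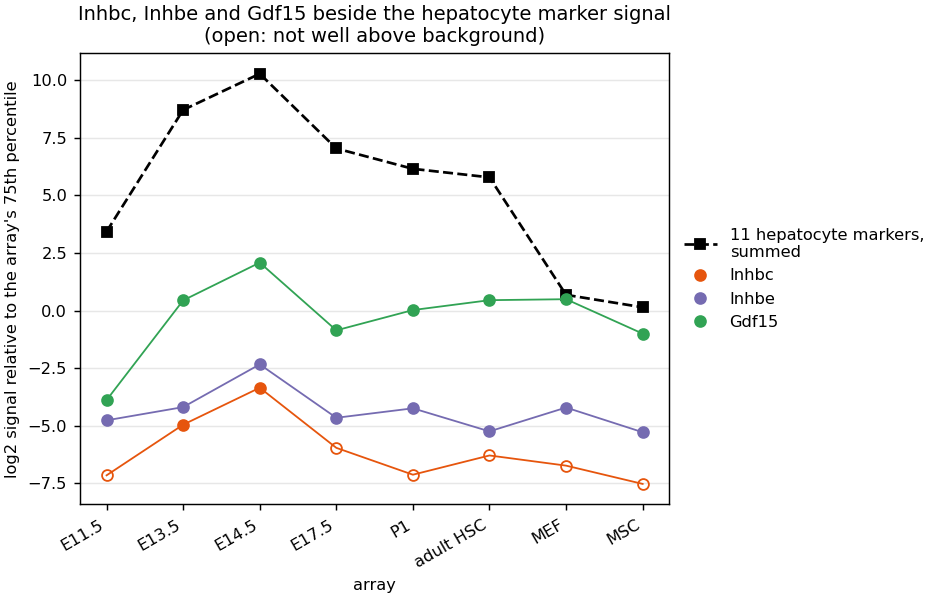
Levels of Inhbc, Inhbe and Gdf15 on the 8 arrays beside the summed level of 11 hepatocyte and hepatoblast markers without Dlk1 (all in log2 units relative to the array's 75th percentile); open points were not well above background. All 4 series have their highest array at E14.5.

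Members lay on both sides of P1 in adult HSC. Adult HSC was at least 4-fold above P1 for 5 of 30 members (16.7%, against 5.21% of all genes): Bmp5 16.1-fold, Bmp10 12.0-fold, Bmp2 8.85-fold, Gdf2 5.91-fold and Gdf6 4.24-fold. Gdf10 differed by 0.09. Adult HSC was at least 4-fold below P1 for 9 members (30%, against 15.9% of all genes): Bmp7, Bmp3, Gdf1, Tgfb2, Tgfb3, Bmp6, Mstn, Lefty1 and Inha. The order of these counts depended on the processing: with normexp 4 members were past 4-fold higher and 3 lower, and with median normalization 6 and 7. Mstn was not detected in adult HSC and, as a bound, was at least 2.13-fold lower.

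Bmp7, a kidney and epithelial BMP known to oppose TGF-beta in fibrosis models, read -0.24, -1.03, -0.30, -4.56 and -1.72 on the p75NTR arrays. It was not detected in adult HSC (-8.09) or MSC (-8.38), and MEF was at -1.86. E17.5 was therefore the low p75NTR array, and adult HSC lay at least 18.7-fold below P1. Mstn, the muscle growth inhibitor myostatin, was detected at P1 only (-4.85). Gdf1, a partner of nodal, read between 0.89 and 2.06 on the p75NTR arrays and -2.03 in adult HSC. Its transcript is shared with Cers1 in a 2-gene unit, so the probe may report either gene, and a second probe of Gdf1 was detected on 2 arrays and not in adult HSC.

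The 3 TGF-beta genes, the main fibrogenic ligands of the family, were detected on all 8 arrays and none separated liver from other cells. Tgfb1 read -1.08, -0.71, -0.37, 0.41, -0.35 and 1.26 on the liver arrays, -0.18 in MEF and -2.36 in MSC. Tgfb2 read 3.58, 2.19, 1.59, 2.80, 3.11 and -0.49, then 2.67 in MEF and 0.93 in MSC. Tgfb3 read 2.87, 3.09, 1.81, 2.85, 4.16 and 0.59, then 4.35 in MEF and 1.92 in MSC. Adult HSC was therefore the highest array for Tgfb1 and the lowest for Tgfb2 and Tgfb3, 12.1-fold and 11.9-fold below P1 for the last pair. Tgfb1 was 3.06-fold above P1 there. A second Tgfb2 probe gave 3.61 log2 units lower, close to 3.59 for the first. The liver differences were 1.13, 0.33 and -0.57, with limma adjusted p of 0.426, 0.885 and 0.763.

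Markers of portal fibroblasts and mesothelium were also lower in adult HSC. The 8 portal fibroblast markers summed to 5.09 to 7.81 on the p75NTR arrays, 7.10 in MEF, 7.16 in MSC and 0.58 in adult HSC, where 7 of 8 were still detected and Pi16 was not. The 9 mesothelial markers summed to 1.67 to 3.72 on the p75NTR arrays, 0.57 in MEF, 3.10 in MSC and -3.21 in adult HSC, with 1 of 9 detected there. Their part in the lower ligand levels of adult HSC was not tested.

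**Figure D5:**
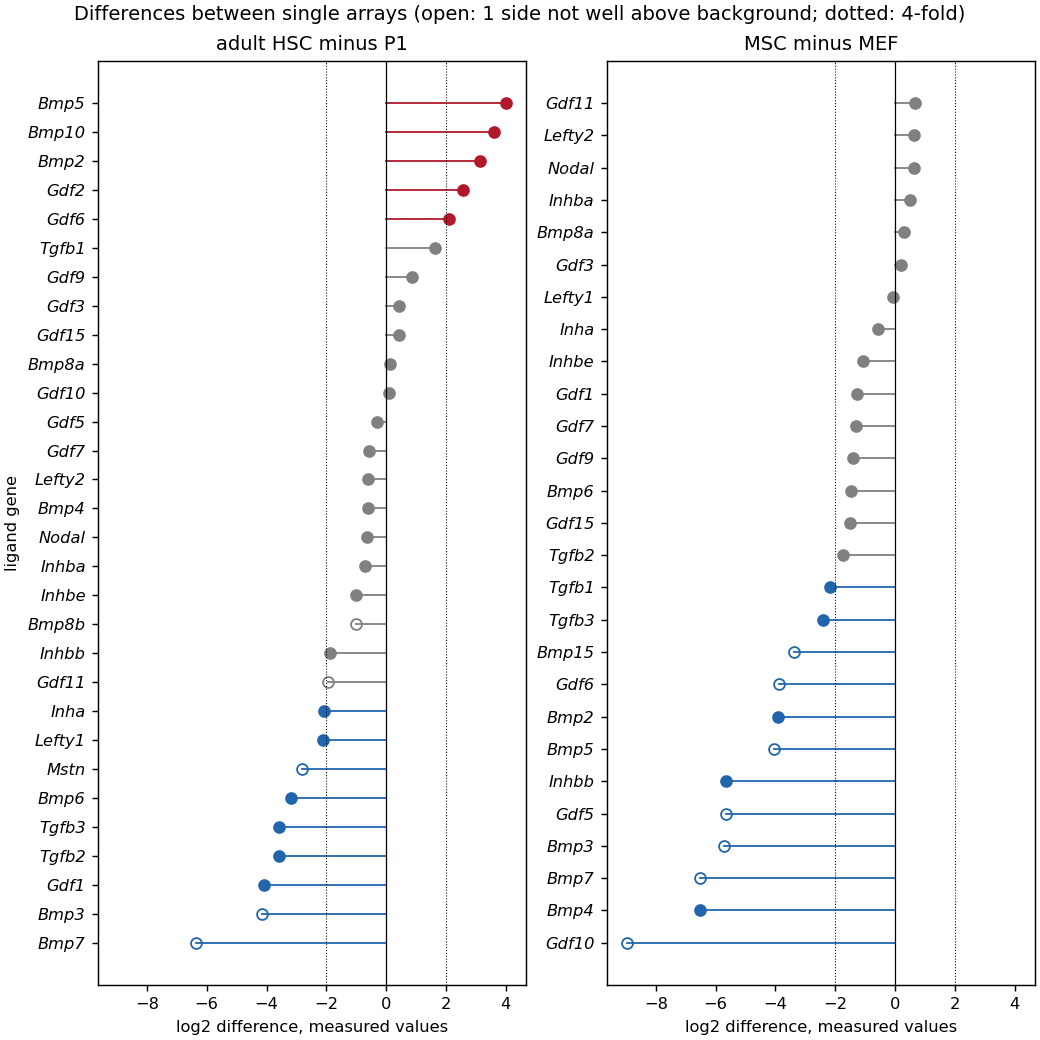
Log2 differences of the members between adult HSC and P1 (left) and between MSC and MEF (right), 1 array a side, with dotted lines at the 4-fold limits; open points had 1 side not well above background. No member passes the upper limit in MSC against MEF, and 12 pass the lower one.

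At the 4-fold limit, members differed between MSC and MEF in 1 direction only, while smaller differences went both ways, such as 0.68 for Gdf11. Of 27 members compared, 12 were at least 4-fold lower in MSC (44.4%, against 15.7% of all genes) and none was 4-fold higher (against 3.19%). They were Gdf10, Bmp4, Bmp7, Bmp3, Gdf5, Inhbb, Bmp5, Bmp2, Gdf6, Bmp15, Tgfb3 and Tgfb1. The median difference was -1.49 over the members and 0.05 over all genes. Of these, 7 were not detected in MSC, and as bounds Bmp15 was at least 2.28-fold and Gdf6 at least 3.23-fold lower. With normexp correction 4 members passed.

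Bmp4, a mesenchymal BMP of early organ development, read 1.68, 0.86, 1.51, 2.61, 3.40 and 2.81 on the liver arrays, 3.63 in MEF and -2.89 in MSC. MSC was thus the one low array, 92.1-fold below MEF; a second Bmp4 probe was not detected on any array. Gdf5, a joint cartilage factor, stood at -1.06 in MEF, between -5.49 and -4.61 on the liver arrays, and undetected in MSC (-6.72), at least 46.0-fold below MEF. Gdf10 was at least 126-fold lower in MSC and Inhbb 50.3-fold lower. Bmp15, an oocyte ligand, was detected on MEF only, at -5.39. Inhba was again the exception among the activin genes, at 0.49 above MEF.

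The remaining members were not at least 4-fold apart in any of these pairs. Gdf9, the oocyte partner of Bmp15, lay between -3.57 in MSC and -0.61 in adult HSC. Gdf7, a roof plate and joint factor, ranged from -5.29 to -3.60, Nodal, the left-right signal, from -4.87 to -2.94, and Lefty2 from -4.21 to -2.46, all detected on 8 arrays. Gdf11 read -4.85 to -3.31 on the p75NTR arrays, -3.79 in MEF, -3.11 in MSC and -6.57, undetected, in adult HSC. Bmp8a ranged from -4.28 to -3.10 and Bmp8b was detected on 3 arrays, at -5.46 to -4.35. These near-identical copies may share signal, and their values are uncertain. Gdf3 ranged from -4.60 to -3.12 on the probe used, but its probes disagreed. Adult HSC minus P1 was 0.44 on the first, while the second read -2.23 in adult HSC and was not detected at P1 or on MSC.

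The receiving side of the pathway was described through 7 lists of genes. None of their genes was called higher in liver cells, and 1 was called lower: Itgb6, an integrin chain that activates latent TGF-beta. It was undetected on all liver arrays and at -4.93 in MEF and -2.81 in MSC (-3.66 ± 0.53, at least 3.79-fold lower, limma adjusted p = 0.0224). Itgb6 entered the test through MEF and MSC alone, with background readings on the liver side. Its call is therefore a description and no support for a trait of the list. Beside the 12.7% of all genes that lay higher in liver cells without overlap, these were Acvr1 and Acvr1c of 7 type I receptors and Acvr2a and Acvr2b of 5 type II receptors. Acvr1c was detected on 4 liver arrays only, so its order at E11.5 and P1 compares background readings. Eng, the co-receptor of BMP9 and BMP10, read 0.70, 1.92, 2.37, 3.43, 3.32 and 5.29 on the liver arrays, -0.22 in MEF and -2.93 in MSC. Eng and Tgfbr3 (betaglycan) were the co-receptors without overlap in the higher direction, by 4.41 ± 1.19 (adjusted p = 0.126) and 1.94 ± 0.38 (adjusted p = 0.0541). Acvrl1, the BMP9 receptor, did not separate the groups: -4.02 to 1.31 on the p75NTR arrays, -3.89 in adult HSC, 0.15 in MEF and -5.05 in MSC. Adult HSC thus lay within the p75NTR range for Acvrl1, near its low end, and MSC was lower still. In the lower direction, where 10.4% of all genes lay without overlap, there was 1 of 6 co-receptors tested. There were also 1 of 11 TGF-beta and activin targets and 3 of 15 genes of latent TGF-beta and ligand processing. Those last 2 lists had 1 and 2 genes in the higher direction.

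Of 11 BMP-Smad target genes tested, Id2, Id3, Smad6 and Hamp lay higher in liver cells without overlap (all genes 12.7%). Hamp, the hepcidin gene, was detected at E14.5 and P1 only, so its order on the other liver arrays compares background readings. Id2, a differentiation inhibitor, was 1.06 ± 0.30 higher (adjusted p = 0.141) and Smad6, a feedback inhibitor, 1.02 ± 0.36 (adjusted p = 0.191). Of 8 Smads, Smad5 and Smad6 were the ones without overlap. The TGF-beta and activin targets had a median difference of -1.05, and 6 of 11 had a positive slope at an unadjusted p under 0.05, as 7 of 14 genes of latent TGF-beta and ligand processing did, against 12.4% of all genes. In each list 1 gene had a negative slope (15.6% of all genes), and 0 passed adjustment. Ltbp2, a latent TGF-beta binding protein, read -3.66 at E11.5, 5.28 at P1 and -4.83 in adult HSC, and Thbs1, which activates latent TGF-beta, -0.78, 3.10 and 1.22. Ltbp2 was thus low again in adult HSC, below every p75NTR array.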

How the data were processed

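RNA was measured on 8 one-colour Agilent arrays, 1 per group. Per the file headers, the intensity values were background-subtracted and spatially detrended by Agilent Feature Extraction 11.5.1.1, with no scaling between arrays. The authors' log2 table, deposited with the series, holds such signals relative to the 75th percentile and served as an alternative. Its column medians lie between -4.48 and -3.55, and values here differ from it by array medians of -0.103 to -0.150.

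Outlier spots were dropped, spots of a probe averaged, and log2 signals reduced by each array's 75th percentile. Probes were named by accession through RefSeq (GRCm38.p6), which named 67.4% of 39429 probes; the brightest probe stood for a gene. Genes detected on at least 1 array compared were tested with limma 3.58.1 in R 4.3.3 (Benjamini-Hochberg, adjusted p under 0.05): liver-derived against MEF and MSC, and slope over 5 stages. Single-array pairs were called at 4-fold, without a test. A bound ("at least") sets the brighter side against the lowest detected signal of the dimmer one. The fits were tested on simulated independent values with known differences added, which checks the calculation and not the calls made here. With 1 array per group, p-values measure spread between different cells, not replicates.

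Members and lists were chosen with earlier results of these data known. Every detected member is named. From the pathway lists, called genes and those with large liver differences are named; Acvr1c, Acvrl1, Id3, Hamp and, for the hepatocyte peak, Alb were named after their values were seen. A gene that this rule names is not reported here. Protein and probe sequences were not used here.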

Additional observations from a re-analysis of the deposited data

How the results depend on the processing

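No liver difference of Gdf2, Bmp10, Gdf10, Bmp2, Bmp5, Gdf6, Inhba or Inhbb reversed under an alternative that gave it a value. These members had an unadjusted p under 0.05 in limma or lacked overlap in the main setting. The other members entered the counts under every setting, but their single differences were kept only for the main one. Genes called in the liver comparison numbered 49 with normexp background correction (offset 50), 160 among genes detected on every array, 72 with the slide as a block, 0 within slide 2 and 524 without adult HSC, against 260. Leaving out each array in turn gave 86 to 1283 genes and 1 to 6 members called, both highest without MEF. Members called were 0 among genes detected on every array, 1 with the slide block, 0 within slide 2 and 4 without adult HSC. Members higher without overlap numbered 17 with normexp, 1 among genes detected on every array and 10 within slide 2, and 6 to 17 with an array left out, 17 being without MEF; those lower numbered 2 within slide 2 and 1 to 7 with an array left out, 7 being without MSC. For lack of overlap and for the 4-fold pairs, the share of all genes was computed only under the main setting. Member counts of these kinds under the alternatives therefore have no share beside them and are not a result about the members. A floor at the lowest detected signal, chosen after seeing the data, called 3 members. For the slope, 93 genes with quantile normalization, 657 detected on every array and 33 with time in days were called, with 1 member each. Reversed slopes under normexp were -0.15 (Bmp3), -0.063 (Bmp6), -0.14 (Inhbb) and -0.17 (Bmp8a). P1 against E11.5 gave 2 members higher with normexp, 3 among genes detected on both arrays, and 1 lower with the mean of all probes. Adult HSC against P1 gave 3 lower and 4 higher with normexp. MSC against MEF gave 4 lower with normexp and 5 among genes detected on both. The causes were not tested, beyond fewer genes or arrays entering where a filter or a left-out array says so. Median normalization moved the median of all genes to -0.35 in the liver comparison, 0.65 for adult HSC against P1 and 0.58 for MSC against MEF; normexp moved the first to 0.34.

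No paired analysis was possible because each group has 1 array. Dim signal limits every value near background.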
